A study of Mus musculus with 17 samples.

Results

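The comparison set mice on restricted feeding against both groups of mice that ate freely, in the fat depot that surrounds the prostate (periprostatic fat). It took the mean of the restricted group (HFD_CR, 5 mice) minus the average of the means of the ad libitum groups (HFD and LFD, 6 mice each), so all 17 arrays of the series entered, 1 mouse per array, and no array was left out. All were wild-type male C57BL/6J mice that started their diet at 6 weeks of age and were killed at 25 weeks. HFD mice ate a diet with 60 kcal% fat without limit, LFD mice ate one with 10 kcal% fat without limit, and HFD_CR mice ate the 60 kcal% diet freely for 12 weeks and then received 70% of the HFD group's intake for 7 weeks. Restricted mice therefore shared the diet of the HFD group and differed from the LFD group in both diet and amount. The sources used here do not give the hour at which tissue was taken or the time since the last meal. Each array holds 1 mouse, so the spread within a group is between animals.

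Values are log2 signals of the Affymetrix Mouse Gene 2.0 ST array, where a difference of 1 stands for a 2-fold change, and every difference below is HFD_CR minus the average of the ad libitum means, ± its standard error, unless another contrast is named. Adjusted p-values come from limma, adjusted by Benjamini-Hochberg across 22180 genes, and a gene is said to have risen or fallen when it was under 0.05. That average alone can be passed by a gene that only returned to the level of LFD, or that sits near HFD while LFD lies far away. A stricter rule is therefore given beside it: a gene lay beyond both groups when HFD_CR differed in the same direction from HFD and from LFD and the larger of both p-values, adjusted over all genes, was under 0.05. The contrasts share the HFD_CR arrays and are set side by side only.

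Fat markers were high in every array: Adipoq signals, for the adipocyte hormone adiponectin, ran from 11.24 to 11.88 and those of Lep, for leptin, from 12.90 to 13.78, where array medians lay between 7.03 and 7.15. A few arrays stood apart in marker lists of other tissues, measured as the mean deviation from each gene's mean over all arrays. The 18 skeletal muscle genes stood at 1.52 in HFD_CR mouse 2, 2.57 in LFD mouse 2 and 1.44 in LFD mouse 3, and between -0.57 and 0.45 elsewhere. For the 14 prostate and accessory gland genes LFD mouse 3 reached 1.64 and HFD mouse 3 reached 0.81, with all others at or below -0.02. The 19 measured male germ cell genes stood at 1.63 in HFD_CR mouse 1 and between -0.46 and 0.26 in the other arrays. None of the 18, 14 and 19 members of these lists was called in the contrast by limma, and at an unadjusted p under 0.05 there were 0, 0 and 12.

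Across all genes 884 of 22180 rose in restricted mice (3.99%) and 730 fell (3.29%), while the median difference of all genes was -0.01. The HFD_CR mean lay outside the range of both other means for 830 of the rises and 559 of the falls, and between them for 54 and 171. Beyond both groups by the stricter rule lay 78 genes that were higher (0.352%) and 35 that were lower (0.158%), and all 113 of them had also passed the contrast. At an unadjusted p under 0.05 in limma, 824 of the 22180 genes were higher beyond both and 414 lower. No such count over all genes was made for the contrast. Unadjusted list counts in the contrast are therefore given without that background. Every restricted mouse was above every freely fed mouse for 188 genes (0.848%) and below every one for 84 genes (0.379%), and 67 of the 78 and 27 of the 35 were among these. Most differences were moderate: 78 rises and 50 falls in the contrast reached 1.5-fold, and 7 and 8 reached 2-fold. Leaving out HFD_CR mouse 3 lowered the counts most, to 465 rises, 331 falls, 24 higher and 9 lower beyond both. Without HFD_CR mouse 5 they were 573, 371, 27 and 10, and without HFD_CR mouse 4 the falls numbered 422 and the genes beyond both 44 and 16. With 1 of HFD mice 1, 2, 3 and 6 or LFD mice 1 and 4 left out, between 16 and 23 genes lay lower beyond both (46 to 48 higher without HFD mouse 2, 3 or 6), and without LFD mouse 2 there were 53 lower. With the 4 arrays of HFD_CR mouse 2, HFD mouse 3 and LFD mice 2 and 3 left out together, 690 rose, 495 fell, and 78 and 37 lay beyond both. Without HFD_CR mouse 1, the array high in germ cell genes, these counts were 827, 720, 82 and 34.

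**Figure D1:**
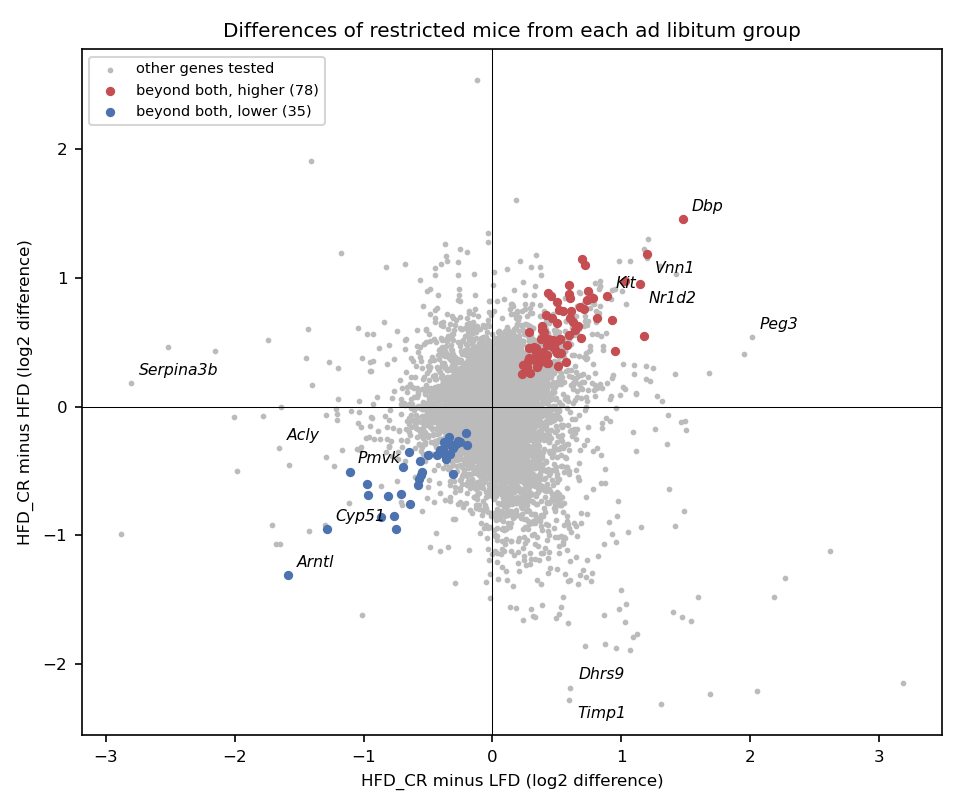
Each point is 1 of 22180 genes, with the log2 difference HFD_CR minus LFD on the horizontal axis and HFD_CR minus HFD on the vertical axis. The 78 genes higher beyond both groups (red) fill the upper right and the 35 lower ones (blue) the lower left. Among these coloured genes Dbp and Arntl lie at the ends. Serpina3b is far below LFD and close to HFD, and Timp1 is far below HFD and, by less, above LFD.

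Circadian clock genes held both ends among the genes beyond both groups, with Dbp as the largest rise and Arntl as the largest fall. The clock is a loop in which the factors encoded by Arntl (BMAL1), Clock and Npas2 switch on genes with E-box promoters, among them the Per and Cry repressors, the nuclear receptors Nr1d1 and Nr1d2 (REV-ERB alpha and beta), and the output factors Dbp, Tef and Hlf. The REV-ERB proteins in turn repress Arntl through ROR response elements, and Nfil3 competes with Dbp for D-box sites. In fat this loop times the daily cycle of lipid synthesis and release, and its phase follows the time of meals as well as light. Of the 11 measured genes of the repressor and output arm, 10 rose and 6 lay beyond both groups, with a median difference of 0.77 against -0.01 over all genes. The list called the activator arm held Arntl, Clock, Npas2, Rora and Rorb, and also Cry1, a repressor, and Nfil3, the competitor of Dbp. Of its 7 measured members 4 were lower, and 3 of them (Arntl, Npas2 and Nfil3) lay beyond both.

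Promoter sequence is shown for clock genes that moved together, because the E-box, the D-box and the ROR element are the sites through which the loop is known to run. Sequences are from RefSeq (GRCm38.p6), with positions on that build. Windows span 250 bases before to 50 after a start, and of 18 measured clock genes 17 had an entry. The E-box CACGTG was searched on both strands, which for a palindrome are the same. It was held by 4 of the 10 repressor and output genes with a window (Per1, Tef, Ciart and Bhlhe41). In the activator list 1 of 7 genes held it (Cry1). So did 4 of the 14 cholesterol synthesis and uptake genes with a window (Hsd17b7, Dhcr7, Sc5d and Insig1), which fell, as told below. Among all 27025 genes with a window the share was 8.09%. The D-box TTATGTAA was found in Per3 and in no other clock gene, and in 1.11% of all genes with a window. The ROR element letters AAAGTAGGT were found in Arntl alone among the clock genes, and in 0.218% of all genes with a window. A further string of letters, TCACCCCA, was searched as well. It was found in Rorb, in 0 of the 10 output genes and in 1.77% of all genes with a window. Of the 14 cholesterol genes 2 held it: Hmgcs1, which did not pass, and Srebf2, which fell. The upstream 250 bases follow, 5′ to 3′ on the strand of the gene, for Per1 (chr11:69098699-69098948, plus strand), the later Tef start (chr15:81811164-81811413, plus), Ciart (chr3:95882229-95882478, minus) and Per3 (chr4:151044666-151044915, minus), with the E-box or D-box in capitals.
Per1: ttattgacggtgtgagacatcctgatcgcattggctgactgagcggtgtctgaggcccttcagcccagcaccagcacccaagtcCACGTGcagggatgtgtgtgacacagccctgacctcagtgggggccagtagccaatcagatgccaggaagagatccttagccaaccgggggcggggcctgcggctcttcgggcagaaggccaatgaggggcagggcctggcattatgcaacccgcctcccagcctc
Tef: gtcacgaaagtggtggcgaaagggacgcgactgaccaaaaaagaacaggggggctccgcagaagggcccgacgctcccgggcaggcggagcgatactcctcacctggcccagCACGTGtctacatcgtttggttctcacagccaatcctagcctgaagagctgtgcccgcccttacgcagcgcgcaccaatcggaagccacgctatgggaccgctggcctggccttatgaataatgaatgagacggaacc
Ciart: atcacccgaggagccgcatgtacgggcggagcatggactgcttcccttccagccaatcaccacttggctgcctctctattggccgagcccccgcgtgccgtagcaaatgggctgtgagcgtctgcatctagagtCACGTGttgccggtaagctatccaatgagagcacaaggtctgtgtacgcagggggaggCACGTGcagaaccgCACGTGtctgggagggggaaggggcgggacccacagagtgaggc
Per3: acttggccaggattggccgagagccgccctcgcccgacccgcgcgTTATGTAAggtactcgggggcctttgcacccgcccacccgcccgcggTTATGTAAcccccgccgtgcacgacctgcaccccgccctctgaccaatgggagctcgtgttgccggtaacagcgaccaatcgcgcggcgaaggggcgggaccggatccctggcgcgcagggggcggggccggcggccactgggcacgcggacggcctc
At the later Arntl start the ROR element letters occur at 2 places, shown in capitals within 29 bases each, chr7:113207493-113207521 and chr7:113207529-113207557 on the plus strand.
Arntl upstream of the start: ttggtcggAAAGTAGGTtagtggtgcgac
Arntl downstream of the start: gaaggcagAAAGTAGGTcagggacggagg
Ciart holds 3 E-boxes in its window and Per3 holds 2 D-boxes, and a match of letters is a description of the window, not a bound site.

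Dbp, a transcription factor of the output arm whose level is among the most strongly cycling in peripheral tissues, had the largest rise beyond both groups. Its signal was 9.62, 10.07, 10.82, 10.10 and 10.42 in HFD_CR mice 1 to 5, against 8.66, 8.73 and 8.88 (lowest, median, highest) in HFD and 8.53, 8.65 and 9.13 in LFD. All restricted mice were above all others, and the freely fed groups overlapped each other. Dbp differed by 1.47 ± 0.13 (adjusted p = 1.26e-05 in limma), with 1.46 against HFD, 1.48 against LFD and 0.02 between HFD and LFD. Nr1d2, which encodes REV-ERB beta, stood at 9.79, 9.95, 10.31, 10.08 and 10.12 in the restricted mice, at 8.90, 9.09 and 9.29 in HFD and at 8.66, 8.88 and 9.24 in LFD. Its difference was 1.05 ± 0.09 (adjusted p = 9e-06 in limma), again with no overlap.

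Nr1d1, for REV-ERB alpha, read 11.60, 11.85, 11.98, 11.95 and 11.98 under restriction, with a highest value of 11.15 in HFD and 11.52 in LFD. It rose by 0.91 ± 0.13, and HFD lay 0.38 below LFD (limma, adjusted p = 0.0446 for that pair), so the rise over HFD (1.10) was larger than over LFD (0.72). Per3, a period gene, had 8.96, 9.58, 10.00, 9.34 and 9.81, and HFD_CR mouse 1 at 8.96 lay within the LFD range of 8.66 to 9.06. Tef had the same order of groups, with a restricted range of 8.17 to 9.05, an HFD range of 7.49 to 7.81 and an LFD range of 7.83 to 8.24. Their differences were 0.92 ± 0.12 and 0.77 ± 0.10. Tef no longer lay beyond both groups when its probe sets were averaged. Per1, a period gene that is also induced by glucocorticoids, was 10.46, 10.16, 10.80, 10.60 and 11.06, and only HFD_CR mouse 2 fell within the LFD range, which reached 10.17 (HFD reached 10.10). Its difference was 0.73 ± 0.11, with -0.09 between HFD and LFD.

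Ciart, Bhlhe41, Hlf and Cry2 rose in the contrast but were not beyond both groups. Ciart, a repressor of BMAL1 activity, split the restricted mice most widely, with 6.95 and 8.31 as the extremes and HFD_CR mice 3 and 5 at 8.25 and 8.31. Its difference was 0.77 ± 0.16, against 0.51 ± 0.08 for Hlf, 0.50 ± 0.12 for Bhlhe41 and 0.24 ± 0.05 for Cry2. For Hlf and Cry2 the gap to LFD was smaller (0.29 and 0.12) than that to HFD (0.73 and 0.35). Bhlhe40, a repressor that also answers to other signals, differed by -0.03 ± 0.16 and did not pass.

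Arntl, the core activator, showed the reverse. Signals of 8.43, 8.30, 7.52, 8.19 and 7.65 in HFD_CR mice 1 to 5 were set against 9.18, 9.31 and 9.50 in HFD and 9.45, 9.58 and 9.85 in LFD. Every restricted mouse was below every other mouse. Arntl fell by 1.44 ± 0.12 on the log2 scale (adjusted p = 6.86e-06 in limma), with -1.31 against HFD and -1.58 against LFD, while HFD minus LFD was -0.28 (adjusted p = 0.125). Npas2, a partner of BMAL1 that can stand in for CLOCK, was 8.36, 8.14, 7.72, 8.06 and 7.85 under restriction and never below 8.54 in HFD or 8.65 in LFD (difference -0.82 ± 0.11). Nfil3 ranged from 7.88 to 8.14 in restricted mice, from 8.54 to 9.10 in HFD and from 8.48 to 9.44 in LFD (difference -0.75 ± 0.11). Clock itself fell by only 0.18 ± 0.04, with a restricted range of 11.54 to 11.79 that overlapped the HFD mice, the lowest of which was at 11.77. Cry1, Rora and Rorb, with differences of -0.13, 0.17 and -0.03, did not pass.

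The restricted mice kept a similar order across these genes. HFD_CR mice 3 and 5 had the lowest Arntl and Npas2 and the highest Dbp, Nr1d2, Per3, Tef, Per1 and Ciart, while HFD_CR mouse 1 had the highest Arntl and Npas2 and the lowest Dbp, Nr1d2, Nr1d1, Per3, Tef and Ciart. The mean deviation over the 11 repressor and output genes was 0.14, 0.40, 0.86, 0.43 and 0.68 in HFD_CR mice 1 to 5, and lay between -0.35 and -0.01 in all 12 freely fed mice. With any 1 array left out, 9 or 10 of the 11 genes still rose and 3 or 4 of the 7 genes of the activator list still fell. The stricter call held under each single omission for Dbp, Nr1d2 and Arntl. It ended without HFD_CR mouse 3 or 5 for Per1, Npas2 and Nfil3 (adjusted p up to 0.0707 in limma). With the mouse number as a block it ended for these genes and for Tef as well. For Nr1d1, Per3 and Tef it ended without 1 of 7 or 8 arrays in turn (adjusted p up to 0.115 in limma). Over the single omissions 2 to 8 output genes and 1 to 3 genes of the activator list lay beyond both. The lowest counts came without HFD_CR mice 3 and 5, and the output count was also below 6 without HFD_CR mice 2 and 4 (4 each), HFD mice 2, 3 and 6 (5, 4 and 4) and LFD mice 1, 4 and 5 (3, 4 and 3), and 8 without HFD_CR mouse 1. Without the 4 arrays high in muscle or gland genes, 10 output genes rose and 4 genes of the activator list fell, with 3 and 3 beyond both.

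**Figure D2:**
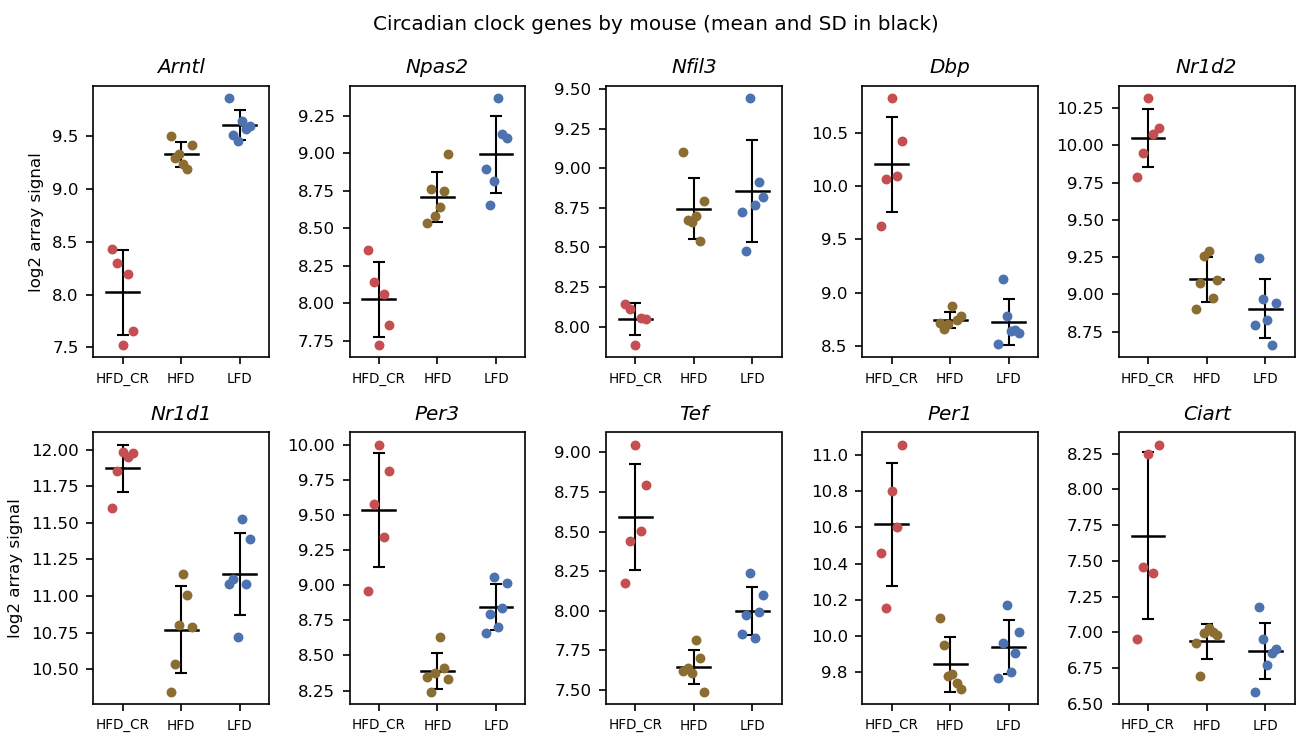
Log2 array signal (vertical axes, one scale per gene) of 10 clock genes in HFD_CR, HFD and LFD mice; each point is 1 mouse, and black lines are the group mean and SD. Arntl, Npas2 and Nfil3 are lower in all 5 HFD_CR mice, Dbp, Nr1d2 and Nr1d1 are higher in all of them, and 1 restricted mouse reaches into the range of freely fed mice for Per3, Tef, Per1 and Ciart.

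Most measured genes of cholesterol synthesis fell in the contrast, and some of them lay beyond both freely fed groups. The pathway turns acetyl-CoA into mevalonate, then isoprenoids (Pmvk, Mvd, Fdps), then squalene and lanosterol (Sqle, Lss), and finally cholesterol (Cyp51, Msmo1, Nsdhl, Hsd17b7, Dhcr7, Sc5d), and its genes are switched on together by SREBP2, the product of Srebf2, when membrane sterol is low. Adipose tissue stores a large part of the body's free cholesterol in its lipid droplets. Of 18 measured members 14 fell and none rose, 7 of the 14 lay beyond both groups, and for 17 the HFD_CR mean was below both other means. At an unadjusted p under 0.05 in limma, 0 members were higher too. The median difference was -0.44, with -0.37 against HFD and -0.47 against LFD, while HFD minus LFD was -0.09. In bulk tissue a lower signal from fewer cells of a type and from less RNA per cell cannot be told apart.

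Cyp51, the lanosterol demethylase, fell most. Its signal was 8.26, 7.95, 8.01, 7.79 and 7.77 in HFD_CR mice 1 to 5, with 8.34, 8.98 and 9.27 in HFD and 8.39, 9.33 and 9.64 in LFD. No restricted mouse reached the lowest freely fed mouse of either group, although the gap to it was small. Cyp51 fell by 1.12 ± 0.17 on the log2 scale (adjusted p = 0.000686 in limma), with -0.95 against HFD and -1.28 against LFD. Sqle, squalene epoxidase, which is a rate-limiting step of the later pathway, was 8.19, 7.98, 7.79, 8.01 and 7.66 under restriction and no lower than 8.33 elsewhere (difference -0.79 ± 0.11). Pmvk, phosphomevalonate kinase, stepped through the groups, from 8.18 to 8.41 in HFD_CR, 8.70 to 9.01 in HFD and 9.002 to 9.71 in LFD, and differed by -0.81 ± 0.09 with HFD 0.60 below LFD.

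Fdps, farnesyl diphosphate synthase, had 10.00, 9.79, 9.73, 9.76 and 9.65 in restricted mice, 10.36 to 10.57 in HFD, and 9.76 to 10.82 in LFD. The LFD value of 9.76 came from LFD mouse 2, and the next lowest LFD mouse was at 10.52, so the overlap rested on that 1 mouse. Fdps differed by -0.69 ± 0.12. The same mouse lay within the restricted range for Lss (8.96, against 8.87 to 9.03) and gave the lowest LFD signal of Cyp51 and Sqle. Msmo1, the sterol C4-methyl oxidase, read 8.50, 8.35, 8.37, 8.47 and 8.35 under restriction, below all of the HFD (8.77 to 9.17) and LFD mice (8.58 to 9.27), and fell by 0.60 ± 0.09. Lss and Mvd differed by -0.54 ± 0.09 and -0.44 ± 0.07.

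Dhcr7, Insig1, Hsd17b7, Nsdhl, Sc5d, Stard4 and Srebf2 fell in the contrast only, by 0.54, 0.46, 0.44, 0.43, 0.30, 0.28 and 0.27. Insig1, which holds SREBPs back in the endoplasmic reticulum and is itself an SREBP target, was thus lower together with the enzymes. Hmgcs1, at the entry of the pathway, differed by -0.18 ± 0.07 (adjusted p = 0.126 in limma), since its LFD range of 11.38 to 11.79 was close to the restricted range of 11.31 to 11.73, with HFD at 11.85 to 11.97. Tm7sf2, Mvk and Fdft1 did not pass either, and for Fdft1 the restricted mean lay between those of HFD and LFD. LFD mouse 2 was also the array with the highest skeletal muscle signal, and its part in these values was not tested beyond leaving it out: 14 genes fell and 10 lay beyond both without it. Without the 4 arrays high in muscle or gland genes 14 fell and 9 lay beyond both, and without HFD_CR mouse 1 these were 14 and 6. The number that fell was 11 without HFD_CR mouse 3, 4 or 5. The number beyond both was 1 without HFD_CR mouse 3, 4 or 5 or HFD mouse 1, 2, 3 or 6, 2 without HFD_CR mouse 2, and 4 without LFD mouse 1 or 4. Single omissions ended the stricter call of Cyp51, Fdps and Pmvk for 8 arrays each and of Sqle for 12, at an adjusted p of up to 0.129, and of Msmo1 for none.

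**Figure D3:**
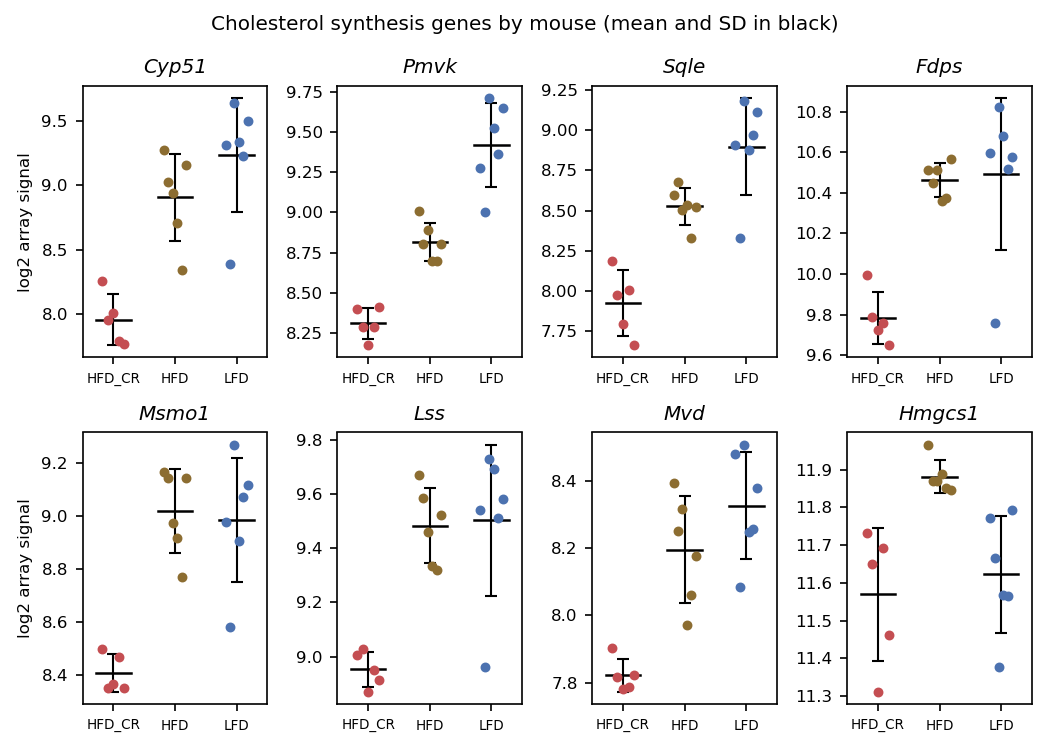
Log2 array signal (vertical axes, one scale per gene) of 8 cholesterol synthesis genes in HFD_CR, HFD and LFD mice; points are mice, black lines mean and SD. All 5 HFD_CR mice lie below the HFD mice for Cyp51 to Mvd, LFD mouse 2 drops to the restricted range for Fdps and Lss, and for Hmgcs1 the HFD_CR and LFD ranges overlap.

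Fatty acid synthesis shares SREBP control. De novo lipogenesis genes make fatty acids from citrate (Acly, Acaca, Fasn), desaturate and elongate them (Scd1, Elovl6), and supply acetyl-CoA or NADPH (Acss2, Me1, Pgd). Of 19 measured members 11 fell in the contrast and none rose, yet 0 lay beyond both groups (limma; 3 at an unadjusted p under 0.05). Their median was -0.31 in the contrast, 0.11 against HFD and -0.76 against LFD. Acly, ATP citrate lyase, had 10.98, 11.00, 11.02, 10.88 and 10.87 in restricted mice, 11.08 to 11.42 in HFD and 11.96 to 12.97 in LFD. All restricted mice were below all others, but HFD_CR minus HFD was -0.32 (adjusted p = 0.0978 in limma) and HFD_CR minus LFD was -1.66. Fasn, fatty acid synthase, ranged from 12.96 to 13.32 under restriction and from 12.93 to 13.06 in HFD, far from 13.52 to 14.03 in LFD, so that its fall of 0.35 ± 0.07 in the contrast came with 0.07 against HFD. For Elovl6 the restricted mice (9.98 to 10.82) stood above all HFD mice (9.71 to 9.87) and the contrast did not pass (-0.61 ± 0.20, adjusted p = 0.0788 in limma). The count that fell was 7 without HFD_CR mouse 4 and 14 without LFD mouse 2.

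**Figure D4:**
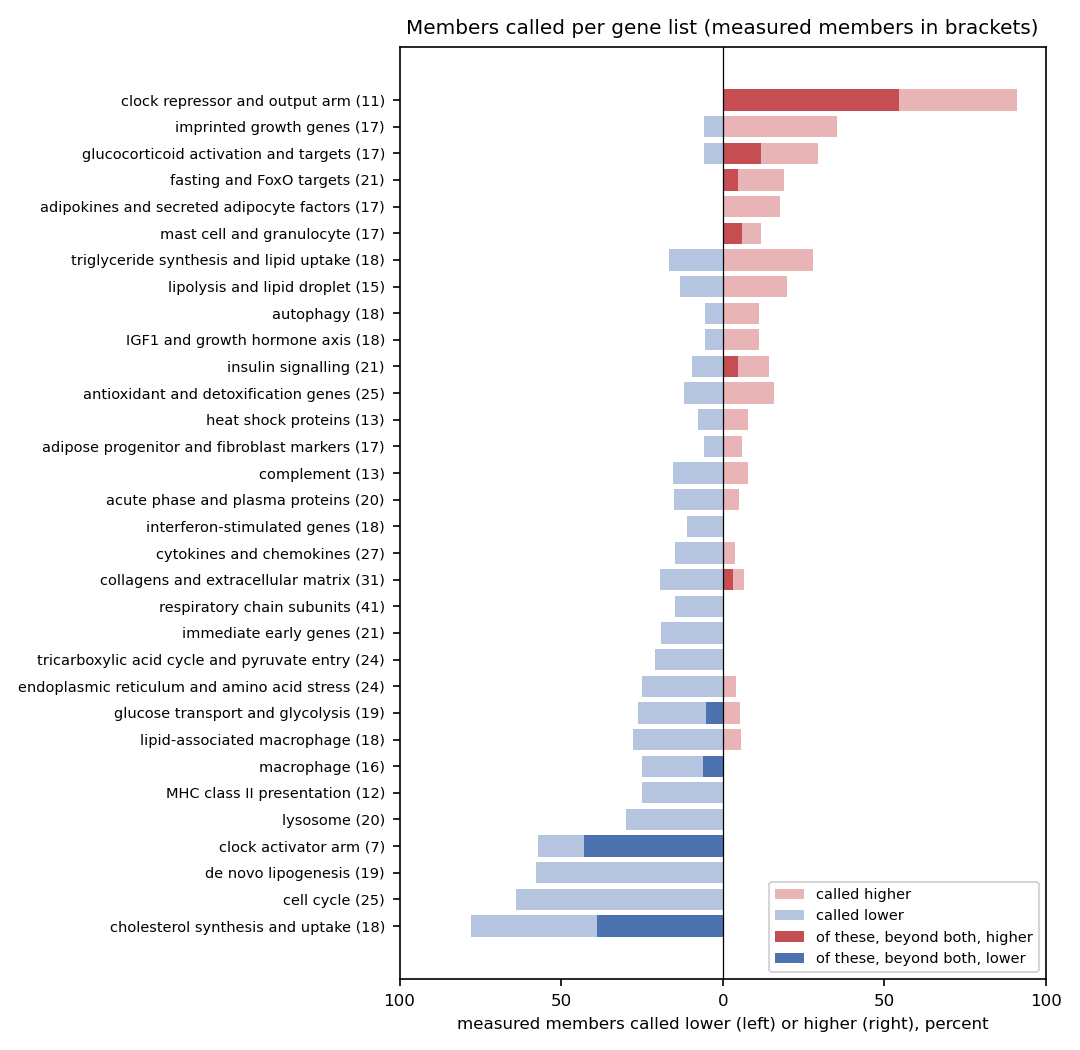
Share of measured members (horizontal axis, percent) called lower (left) or higher (right) in HFD_CR minus the average of HFD and LFD, for the gene lists with at least 2 members called; dark parts are members beyond both groups. The clock output arm reaches 10 of 11 and cholesterol synthesis 14 of 18, each with a large dark part, while lipogenesis (11 of 19) and cell cycle (16 of 25) have none.

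Of 25 measured cell cycle genes 16 fell, 0 rose and 0 lay beyond both (limma; 0 higher in the contrast and 0 beyond both at an unadjusted p under 0.05). The list median was -0.32 in the contrast, -0.75 against HFD and 0.10 against LFD. Mki67, a marker of dividing cells, was 7.97 to 8.44 in HFD_CR, 9.19 to 9.88 in HFD and 7.82 to 8.34 in LFD. Its difference was -0.65 ± 0.11, with 0.04 against LFD. Members differed in their place against LFD: every restricted mouse was above every LFD mouse for Cdk1 (8.43 to 8.54, against 7.35 to 7.65), E2f1 (8.93 to 9.07, against 8.51 to 8.73) and Mcm3 (7.61 to 7.72, against 7.28 to 7.51), which were picked out after their values were seen and did not pass the contrast. The number that fell was 8, 9 and 10 without HFD_CR mice 5, 3 and 2, and 9 without the 4 arrays high in muscle or gland genes. Macrophage genes had 4 of 16 members lower and 0 higher (limma; 0 higher at an unadjusted p under 0.05), of which Fcgr1 (-0.75), Cd14 (-0.49) and Msr1 (-0.43) had restricted means near those of LFD, with 9 that fell without LFD mouse 6 and 3 without the 4 arrays. Cx3cr1, the fractalkine receptor of monocytes and resident macrophages, was the member beyond both, with 8.28, 8.22, 8.04, 8.18 and 8.07 under restriction, 8.41 to 8.62 in HFD and 8.28 to 8.57 in LFD. Its difference was small, -0.31 ± 0.05, and 9 of 17 single omissions ended the stricter call (adjusted p up to 0.134 in limma). The mean deviation of the macrophage list ran from -0.26 to 0.05 in HFD_CR, 0.31 to 0.75 in HFD and -0.69 to -0.17 in LFD. The medians were -0.23, 0.54 and -0.38, and the HFD_CR and LFD ranges overlapped. The part of this level in Cx3cr1 was not tested.

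Among genes outside the clock and sterol lists, Vnn1 rose most beyond both groups. It encodes pantetheinase, which releases pantothenate and cysteamine and is a PPAR alpha target in liver. Its signal was 9.74, 10.07, 10.43, 10.04 and 10.63 in HFD_CR mice 1 to 5, 8.73, 9.004 and 9.37 in HFD and 8.54, 9.01 and 9.33 in LFD. The restricted mice were all above the others, and the freely fed groups had nearly the same median. Vnn1 differed by 1.19 ± 0.13 (adjusted p = 0.000133 in limma). Gstt2, a glutathione transferase, rose by 0.82 ± 0.10, with restricted signals from 9.43 to 10.14 and freely fed ones up to 9.25. Fbxo21, a ubiquitin ligase subunit, rose by 0.78 ± 0.10, although LFD mouse 2 at 10.97 passed HFD_CR mouse 1 at 10.93.

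Kit, the receptor for stem cell factor, was 9.46, 10.00, 9.94, 9.44 and 9.64 under restriction, 8.65, 8.81 and 9.02 in HFD and 8.45, 8.83 and 9.08 in LFD, and differed by 0.87 ± 0.10. Kit is best known as a mast cell marker. Of the 17 measured mast cell and granulocyte genes Kit and Elane rose and none fell, with a median difference of -0.07, and at an unadjusted p under 0.05 in limma 3 were higher and 1 was lower. The mean deviation of this list ran from -0.07 to 0.04 in HFD_CR, -0.01 to 0.14 in HFD and -0.33 to 0.12 in LFD. The mast cell protease genes Cpa3, Mcpt4, Cma1 and Tpsb2 differed by -0.15, -0.28, -0.20 and -0.13, and Hdc, for histidine decarboxylase, by 0.19, none of which passed. The part of mast cells in the Kit signal was not tested. Kiss1r, the kisspeptin receptor, read 8.56, 8.64, 9.06, 8.66 and 8.87 against 8.21 at most in freely fed mice, and differed by 0.81 ± 0.10. Btc, the epidermal growth factor family ligand betacellulin, stood at 8.39, 8.41, 8.56, 8.41 and 8.80, against 7.62 to 7.96 in HFD and 7.42 to 7.90 in LFD, and differed by 0.80 ± 0.09. Clstn2, a calsyntenin, rose by 1.00 ± 0.18, but its call beyond both (adjusted p = 0.043 in limma) ended in 13 of 17 single omissions, with a highest value of 0.132 without HFD_CR mouse 3. Vnn1, Kit, Gstt2, Kiss1r, Btc and Fbxo21 kept theirs in each omission.

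Timp3, an inhibitor of matrix metalloproteinases and of TACE, rose within an extracellular matrix list in which 6 of 31 members fell. It was 11.71, 11.69, 11.92, 11.92 and 12.06 under restriction, 10.76 to 11.30 in HFD and 11.17 to 11.53 in LFD, and differed by 0.66 ± 0.08. Collagen genes Col1a1 and Col3a1 fell by 0.43 and 0.51, with restricted means of 10.60 and 10.68, LFD means of 10.57 and 10.95 and HFD means of 11.48 and 11.43. Thbs2 rose by 0.53 and was near HFD (-0.29 against it) and far above LFD (1.36). Timp1, a related inhibitor, fell by 0.84 ± 0.19 with a restricted mean between the others, and its LFD signals (6.59 to 7.15) lay at or below the array medians. The stricter call of Timp3 ended without HFD_CR mouse 3 or 5 (adjusted p up to 0.0579 in limma).

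Gys2, the glycogen synthase isoform of liver and fat, was 9.67, 9.59, 9.29, 9.66 and 9.37 under restriction, 10.36 to 10.60 in HFD and 9.60 to 10.78 in LFD, where 1 mouse at 9.60 lay within the restricted range. It differed by -0.85 ± 0.13. Cth, cystathionine gamma-lyase, which makes cysteine and hydrogen sulphide, stood at 7.995, 8.10, 7.71, 7.79 and 7.84 in restricted mice and at 8.35 or more in the rest, a difference of -0.70 ± 0.08. Pkm, pyruvate kinase, was lower in each restricted mouse (11.13 to 11.27) than in any HFD (11.41 to 11.62) or LFD mouse (11.44 to 11.89), and differed by -0.37 ± 0.06. Of 19 measured genes of glucose transport and glycolysis 5 fell and 1 rose, with a median of -0.08. Dtx4, a Deltex ubiquitin ligase, and Hephl1, a ferroxidase, differed by -0.81 ± 0.12 and -0.86 ± 0.16, and the restricted Hephl1 signals (6.89 to 7.14) were at the array medians. Cth kept the stricter call in each single omission, while Dtx4 lost it without HFD_CR mouse 5 (adjusted p = 0.0578 in limma), Gys2 in 6 omissions (up to 0.114), Pkm in 11 (up to 0.147) and Hephl1 in 15 (up to 0.146).

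**Figure D5:**
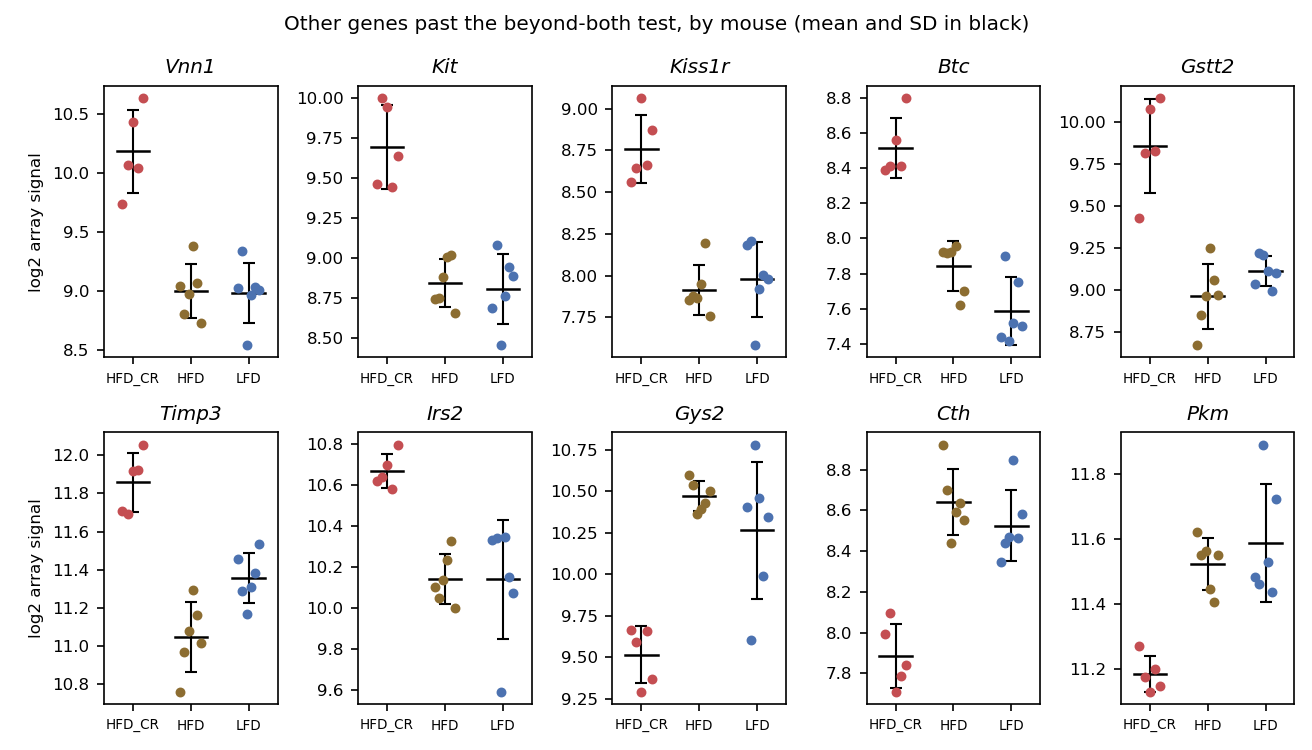
Log2 array signal (vertical axes, one scale per gene) of 10 further genes beyond both groups, in HFD_CR, HFD and LFD mice; points are mice, black lines mean and SD. Vnn1, Kit, Kiss1r, Btc, Gstt2, Timp3 and Irs2 are higher in all 5 HFD_CR mice than in all 12 freely fed mice, Cth and Pkm are lower in all of them, and for Gys2 1 LFD mouse lies in the restricted range.

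Irs2, an insulin receptor substrate that FoxO factors induce when insulin is low, was 10.62, 10.64, 10.70, 10.58 and 10.79 under restriction, 10.00 to 10.33 in HFD and 9.59 to 10.35 in LFD, and differed by 0.52 ± 0.10. Among 21 measured fasting and FoxO targets 4 rose (Irs2, Klf15, Txnip and Foxo1), none fell (limma; 0 at an unadjusted p under 0.05) and Irs2 alone lay beyond both. The count that rose was 2 without HFD_CR mouse 4, and Klf15 lost its call in 16 of 31 alternative settings. Pdk4, a classical fasting gene that spares glucose, differed by 0.08 ± 0.18 and did not pass. Pck1, the glyceroneogenic enzyme of fat, rose by 0.69 ± 0.12 with a mean 1.09 above HFD and 0.30 above LFD (adjusted p = 0.195 in limma for the latter). Of 17 glucocorticoid activation and target genes 5 rose (Per1, Zbtb16, Klf9, Tsc22d3 and H6pd) and Cdkn1a fell, with a median of 0.24. Without the 4 arrays high in muscle or gland genes 8 rose, 1 fell and 1 lay beyond both. H6pd, which supplies NADPH to the enzyme that regenerates active glucocorticoid, rose by 0.28 ± 0.04 and, with Per1, lay beyond both. Fkbp5, a further glucocorticoid target, was 8.50, 8.34, 8.90, 8.89 and 9.87 in restricted mice and 8.03 to 8.67 in HFD, with LFD mouse 3 at 9.27 and the other LFD mice at 8.26 or less, and did not pass (0.62 ± 0.21, adjusted p = 0.0928 in limma). The stricter call of Irs2 ended in 12 and that of H6pd in 11 of 17 single omissions, at an adjusted p of up to 0.138.

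Of 17 measured imprinted growth genes 6 rose, 1 fell and 0 lay beyond both (limma; 5 higher beyond both at an unadjusted p under 0.05). Of 17 adipokines and secreted adipocyte factors 3 rose (Nnat, Mest and Nrg4), none fell and 0 lay beyond both (limma; 8 higher and 1 lower in the contrast, and 1 higher beyond both, at an unadjusted p under 0.05). Peg3, a paternally expressed zinc finger gene, was 11.16, 11.31, 11.28, 11.71 and 11.52 under restriction, 10.59 to 11.04 in HFD and 8.51 to 10.24 in LFD, with no overlap of any pair of groups. It rose by 1.27 ± 0.18, of which 2.01 was against LFD and 0.54 against HFD (adjusted p = 0.083 in limma). Nnat, neuronatin, an imprinted membrane proteolipid gene, rose by 0.78 ± 0.14 and missed the rule (adjusted p = 0.0734 in limma), with LFD mouse 2 at 12.76 and the lowest restricted mouse at 12.75. Plagl1, Mest, Grb10 and Sgce also rose, Dlk1 fell, and 10 did not pass. Dlk1 signals lay between 6.31 and 6.78 in all arrays, below the array medians of 7.03 to 7.15. Mest, a marker of fat expansion, was 12.85 to 13.06 under restriction, 13.03 to 13.12 in HFD and 10.21 to 12.02 in LFD, so its rise of 0.69 ± 0.19 placed it near HFD. Lep and Adipoq did not pass, with differences of 0.07 ± 0.07 and 0.19 ± 0.06. Saa3, an acute phase gene that fat expresses, fell by 1.31 ± 0.25, with 9.65, 10.80, 9.02, 9.07 and 9.24 in restricted mice, HFD_CR mouse 2 at 10.80 within the LFD range of 10.06 to 11.14, and HFD from 10.81 to 11.80.

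Of 16 measured thermogenic genes 1 fell (Dio2), 0 rose and 0 lay beyond both (limma; 2 higher and 6 lower in the contrast, and 1 lower beyond both, at an unadjusted p under 0.05). Ucp1, which makes brown and beige adipocytes burn fuel as heat, ranged from 6.17 to 8.26 in HFD_CR, 6.82 to 9.53 in HFD and 6.71 to 12.65 in LFD, and its difference of -1.93 ± 0.73 did not pass (adjusted p = 0.128 in limma). Dio2, the enzyme that activates thyroid hormone, fell by 0.57 ± 0.12. Restricted signals of 6.35 to 6.59 and freely fed ones of 6.61 to 7.89 did not overlap. The restricted signals lay below the array medians of 7.03 to 7.15. HFD signals (6.61 to 7.04) and the LFD median (7.08) reached no higher than that range of medians. The 7.89 came from LFD mouse 3, with the other LFD mice at 6.93 to 7.28. Over all 48 lists, 54 of the 816 measured genes rose and 122 fell. Beyond both groups lay 10 and 12 of them, in 10 of the lists. Of all 22180 genes 3.99% rose and 3.29% fell, with 0.352% and 0.158% beyond both. Some list counts were near these shares, such as the 1 thermogenic gene that fell (6.25%) and the 1 glycolysis gene that rose (5.26%). The lists were chosen with earlier results of these data known. No member passed in 8 lists (T cell, B and plasma cell, skeletal muscle, prostate and accessory gland epithelium, urothelium, male germ cell, Schwann cell and nerve, erythroid) by limma, where unadjusted p under 0.05 gave 0 higher and 3 lower members for T cells, 0 and 3 for B and plasma cells, 12 and 0 for male germ cells, and at most 1 in the rest.

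Other pathways had single members of note. Of 24 genes of the tricarboxylic acid cycle and pyruvate entry 5 fell and 0 lay beyond both (limma; 1 higher and 3 lower at an unadjusted p under 0.05), with Dlat (-0.34 ± 0.06), a pyruvate dehydrogenase subunit, lower in all restricted mice than in all others. Respiratory chain subunits fell in 6 of 41 cases with a list median of -0.07, and Cox5a and Atp5o differed by -0.28 and -0.27. Hspa5, the main chaperone of the endoplasmic reticulum, fell by 0.38 ± 0.06 with -0.57 against HFD and -0.19 against LFD (adjusted p = 0.114 in limma). Of the 24 measured stress genes in its list 6 fell and 1 rose, with a median of -0.14. The immediate early genes Fos and Egr2 fell by 0.43 and 0.37 in the contrast, yet were 0.44 above LFD each and 1.29 and 1.18 below HFD. Igfbp4, an IGF binding protein, rose by 0.38 ± 0.08. Rspo1, a Wnt co-activator expressed in mesothelium, rose by 0.54 ± 0.11. Of the 13 measured mesothelial genes it was the 1 that passed, and the list median was 0.41. At an unadjusted p under 0.05 in limma 8 were higher and 0 lower, and the share of all genes at that limit was not counted. The mean deviation of the mesothelial list had medians of 0.22 in HFD_CR, -0.26 in HFD and -0.05 in LFD. It ranged from -0.26 to 0.50, -0.49 to 0.05 and -0.31 to 0.94. The part of mesothelium in the Rspo1 signal was not tested.

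Some genes passed the contrast while the restricted mean lay between the freely fed means, which is a position on the path from 1 group to the other and not beyond them. Timp1, Dhrs9, Cyp2f2, Pon1 and Serpina3b had the largest such falls and Sly, Mest, Fgf13, Sptlc3 and Ccn5 the largest such rises. Several of these calls were unstable. Fgf13 lost its call in 19 of 31 alternative settings, Sly in 15 of 30, Mest in 12 of 31 and Dhrs9 in 8 of 31. Cyp2f2 lost its call in 6 of 31, among them the average of its probe sets. Serpina3b, a serine protease inhibitor gene, differed by -2.81 from LFD and by 0.18 from HFD. Its HFD_CR median (6.99, range 5.80 to 8.06) and HFD median (6.60, range 6.14 to 7.76) lay below the array medians of 7.03 to 7.15. Dhrs9, a retinol dehydrogenase, differed by -2.18 from HFD and by 0.61 from LFD. For Sptlc3, a subunit of serine palmitoyltransferase that starts sphingolipid synthesis, the restricted mean was 1.501 above LFD and 0.18 below HFD.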

How the data were processed

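The authors deposited log2 expression values per probe set of the Affymetrix Mouse Gene 2.0 ST array; RMA, R 3.5.0 and limma are the tools named in the submitters' processing notes, which give no order or role for them. The genome build of the deposited values is not given in the sources used here. Of 33793 probe sets, 23521 had exactly 1 gene symbol, 1814 several and 8458 none. The probe set with the highest mean over all arrays stood for a gene, which left 22180 genes. No filter or rescaling was applied, since the deposited log2 values were already normalized.

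A mean per group was fitted over 17 arrays in R 4.3.3 (limma 3.58.1, functions lmFit and eBayes), leaving 14 residual degrees of freedom. The stricter rule is an intersection-union test from the same fit. The fit was tested on simulated data with independent noise per gene, without the tissue differences between arrays seen here. Of genes changed in HFD_CR only by 0.5 or 1, 92% and 100% passed the contrast, and 79% and 98% lay beyond both. Of genes changed in HFD only by 0.5 or 1, 49% and 89% passed the contrast, and 0% lay beyond both. Groups follow the sample titles, and all mice entered. The number of arrays limits the precision. Lists (48, with 816 of 892 genes measured), contrasts and the members named were chosen with earlier results of these data known. Symbols without a probe set of their own are not analysed here.

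Named genes were, by rule, the 12 largest rises and falls beyond both groups (without predicted genes, clone names, small RNAs and receptor or immune segments), up to 3 members per list beyond both or otherwise up to 2 past the contrast, the 5 largest rises and falls with the restricted mean between the others, and 12 fixed genes from Lep to Ucp1. Members named beyond that rule complete the description of a list. Figures were drawn with matplotlib 3.10.9. Alternatives were each array left out, arrays high in other tissue or in Ucp1 left out, the mouse number as a block, a muscle covariate, other probe set rules, normalizations, variance models and thresholds, HFD and LFD as 1 group, and, chosen after seeing the data, HFD_CR mice 1 and 2 left out.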

Additional observations from a re-analysis of the deposited data

Results flagged for a closer look

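Among 285 groups of values checked, 23 held 1 array far from the rest of its group, where chance alone gives about 1 in 20 groups. LFD mouse 2 was low for Cyp51 (8.39), Fdps (9.76) and Sqle (8.33) and high for Fbxo21 (10.97). LFD mouse 3 was high for Dio2 (7.89) and Fkbp5 (9.27), low for Igfbp4 (11.05), Irs2 (9.59), Mest (10.21) and Nnat (11.61), and high in the gland epithelium list (1.64). HFD_CR mouse 1 was low for Pck1 (12.78), and high for Timp1 (8.11) and in the male germ cell list (1.63). HFD_CR mouse 2 was low for Sly (6.95) and Synpo2 (10.97) and high in the skeletal muscle list (1.52), and HFD_CR mouse 3 was low for Fos (7.43). In the HFD group mouse 4 was low for Fasn (12.93) and high for Pdk4 (11.87), mouse 1 was high for Serpina3b (7.76), mouse 3 was high in the gland list (0.81) and mouse 6 in the muscle list (0.45).

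Outside the gene comparison, the 10272 probe sets with no or several gene symbols, fitted on their own with limma, included 88 called higher and 47 called lower in the contrast. Beyond both groups 7 were higher and 0 lower (100 lower at an unadjusted p under 0.05).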

How the results depend on the processing

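The main counts were 884 rises and 730 falls in the contrast, 78 and 35 beyond both groups, and 54 and 122 list members. With 1 array left out they ranged from 465 to 969, 331 to 979, 24 to 90 and 9 to 53, and list members from 39 to 63 and 66 to 140, each lowest without HFD_CR mouse 3. Array weights gave 1438, 1561, 168 and 87. HFD and LFD as 1 group, whose spread then holds the diet difference, gave 314 and 147 in the contrast. A 1.5-fold minimum left 78, 50, 30 and 12, and an adjusted p under 0.01 left 360, 213, 23 and 6. Without HFD_CR mice 1 and 2, chosen after seeing the data, 456 fell. The sample titles do not say whether mouse numbers pair the samples. Of 16 same-numbered pairs 5 correlated above 0.1, with a median of 0.04 against -0.02 for other pairs, which does not settle it. The replicate block gave 701 and 547 in the contrast with 31 and 9 beyond both. In that fit 14 cholesterol genes fell and 0 lay beyond both (Msmo1 at an adjusted p of 0.0529 in limma). Of the clock genes, 4 of the output list and 1 of the activator list lay beyond both. The cause of these moves was not tested, apart from fewer arrays or stricter limits where the alternative imposes them. No named gene reversed its sign past a call. Of 86 named genes called in the contrast, 37 kept the call in each alternative and 49 lost it in at least 1, and 4 of the 6 not called were called in at least 1. Signals near or below the array medians, such as those of Hephl1, Dio2, Timp1, Sly, Serpina3b, Pon1 and Dlk1, limit what their differences show.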
